A study of Mus musculus with 25 samples.

Results

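The CREB and ATF factors and their coactivators are a family of 10 genes: Creb1, Crem, Atf1, Atf2, Atf7, Atf3, Atf4, Crebbp, Ep300 and Crtc1. They were measured in hippocampal tissue of adult mice that had or had not been handled as pups. Every probe set that the array annotation names for 1 of these genes and no other was taken, which gave 29 of the 45101 probe sets on the array. The 29 probe sets cover 9 of the 10 genes. The only probe set that names Atf1 names the pseudogene Atf1-ps as well, so Atf1 has no values here. The family was chosen by earlier results on handling in these mice, in particular the higher Atf2 signal, so differences between handled and non-handled mice are given as descriptions with standard errors and without p-values. A probe set is described as past the threshold where the Benjamini-Hochberg adjusted p, over all 45037 probe sets that are not array controls, was under 0.05 in a limma fit with handling and extraction method as terms.

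Each of the 25 arrays came from a different mouse, a female of the inbred strain Balb c/J. The 11 handled mice were separated from the dam for 15 min a day between postnatal days 1 and 14, and the litters of the 14 non-handled mice were left undisturbed. Both groups went through behavioral testing at 8 weeks of age, and the hippocampal field CA1 was taken 2 weeks later and its RNA amplified in a double round. RNA was extracted with RNA/DNA columns from 7 handled and 10 non-handled mice and with Trizol from 4 handled and 4 non-handled mice. Siblings are present within the groups, but the litter of each mouse is not given in the sources used here, so standard errors and p-values treat the mice as independent.

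Creb1, Crem and Atf1 encode closely related leucine zipper proteins that bind, as dimers, the cyclic AMP response element of gene promoters. Phosphorylation of CREB by kinases that respond to calcium or cyclic AMP recruits the histone acetyltransferases CBP and p300, the products of Crebbp and Ep300, and Crtc1 encodes a coactivator that enters the nucleus after calcium and cyclic AMP signals. In the hippocampus CREB is known for its role in long-term memory and lasting synaptic change. Atf2 and Atf7 encode related factors that are phosphorylated by stress-activated kinases, and Atf2 can pair with Jun. Atf4, also called CREB2, is translated when amino acids are short or protein synthesis is restrained and turns on amino acid genes, and Atf3 is an early stress-induced member.

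Promoters of 9 of the 10 genes, all but Crem, were found in the RefSeq table of the mouse build GRCm38.p6. Each was taken as the 250 bases that precede the gene's annotated start. Motifs were searched on both strands: the full response element TGACGTCA, its short form TGACG, which the full element contains, and TGATGCAA, the core of the element that ATF4 binds with its partners. Of all 32851 promoters in the table, 1.55% held the full element, 17.8% the short form and 0.791% the ATF4 element core. Among the 9 members' promoters, 0 held the full element, 3 held the short form (Atf1, Atf3 and Atf4) and 1 held the ATF4 element core (Atf3). The promoters of Atf2 and Atf4 are shown because each gene had 2 probe sets past the threshold, in opposite directions, and that of Atf3 because it held matches to both shorter motifs. They lie at chr2:73892640-73892889 on the minus strand for Atf2, chr15:80254934-80255183 on the plus strand for Atf4 and chr1:191183334-191183583 on the minus strand for Atf3. They are written 5′ to 3′ along the gene, with motif matches in capitals.
Atf2: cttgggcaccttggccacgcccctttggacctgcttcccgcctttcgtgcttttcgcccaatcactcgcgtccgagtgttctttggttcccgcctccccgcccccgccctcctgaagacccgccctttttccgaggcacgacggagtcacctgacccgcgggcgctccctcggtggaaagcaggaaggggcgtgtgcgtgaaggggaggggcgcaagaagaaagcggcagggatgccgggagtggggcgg
Atf4: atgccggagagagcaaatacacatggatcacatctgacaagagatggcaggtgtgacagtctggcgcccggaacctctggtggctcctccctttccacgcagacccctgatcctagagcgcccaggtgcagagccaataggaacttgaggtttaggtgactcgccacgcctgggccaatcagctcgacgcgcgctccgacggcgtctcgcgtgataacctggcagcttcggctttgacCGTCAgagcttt
Atf3: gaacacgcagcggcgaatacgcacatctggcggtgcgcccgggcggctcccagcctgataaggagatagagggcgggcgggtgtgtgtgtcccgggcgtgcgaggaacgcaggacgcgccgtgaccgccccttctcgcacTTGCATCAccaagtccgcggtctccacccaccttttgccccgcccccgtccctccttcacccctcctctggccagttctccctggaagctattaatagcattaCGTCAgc
In Atf4 the short form lies 12 to 8 bases before the start, on the opposite strand. In Atf3 the short form lies 7 to 3 bases before the start and the ATF4 element core 110 to 103 bases before it, both also on the opposite strand. Atf2 held none of these letters in this window. A match is a description of the letters and not evidence of binding.

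Signal is the MAS 5.0 intensity, on a linear scale, and differences are on the log2 scale. Over all probe sets the median handled minus non-handled difference was -0.15, and it became 0.02 after quantile normalization, so a difference near -0.15 is that of the median probe set. This median depended on brightness, at -0.02 in the upper 50% of mean signal and -0.42 in the lower 50%. A member in the lower 50% is therefore to be set beside -0.42. The dissected tissue carried the CA1 markers: 5 of the 6 CA1 pyramidal neuron markers had a probe set, all in the upper 50% of mean signal, and their summed signal was 30504 at the median of the handled group and 29951 at that of the non-handled group. Of the 5 dentate granule neuron markers 2 were in the upper 50% of mean signal (C1ql2, Dsp and Tdo2 were not), and so were 4 of the 5 CA3 pyramidal neuron markers (Iyd was not). Among the markers of other cells, 2 interneuron markers were past the threshold as higher and 1 as lower with handling, 1 astrocyte and 1 microglia marker as higher and 2 endothelial markers as lower. The ranges of summed marker signal of handled and non-handled mice overlapped for each of the 8 cell types examined (interneurons 13558 to 20231 and 11740 to 17334, endothelial cells 5106 to 7943 and 2960 to 8214), and their part in the results was not tested. In tissue, fewer cells of a type and less RNA per cell cannot be told apart. No array stood apart in its correlation with the others (0.805 to 0.918 for all pairs), but the non-handled mouse NH162 had a log2 3′ to 5′ ratio of the Actb control probe sets of 3.24, while no other array was above 2.12.

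Handled mice had higher Atf2 and Creb1 signal and lower Atf4 and Crtc1 signal than non-handled mice in 6 of the 29 probe sets. Those 6 were past the threshold, 3 higher and 3 lower, which is 20.7% of the family beside 11.5% of all probe sets (3.58% higher and 7.93% lower). Nothing is read from that share because the family was chosen with this contrast known. By sign alone 14 probe sets were higher and 15 lower, with a median of -0.09. The 17 bright members, those in the upper 50% of mean signal, had a median of 0.19, beside -0.02 for the whole upper 50%. Within the upper 50% the members were not matched in brightness to the other probe sets, so nothing is read from that distance. Of the 17, 12 were higher, beside 47.7% of all bright probe sets. These were 4 of Atf2, 3 of Crebbp, 2 of Creb1 and 1 each of Crem, Crtc1 and Ep300. Probe sets of 1 gene are not separate observations and brightness was not matched here, so nothing is read from this count either. In the lower 50%, 10 of the 12 were lower, beside 76.3% of all dim probe sets. The median standard error was 0.10 for the bright and 0.41 for the dim members, so most dim members could not be placed on either side of 0.

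**Figure D1:**
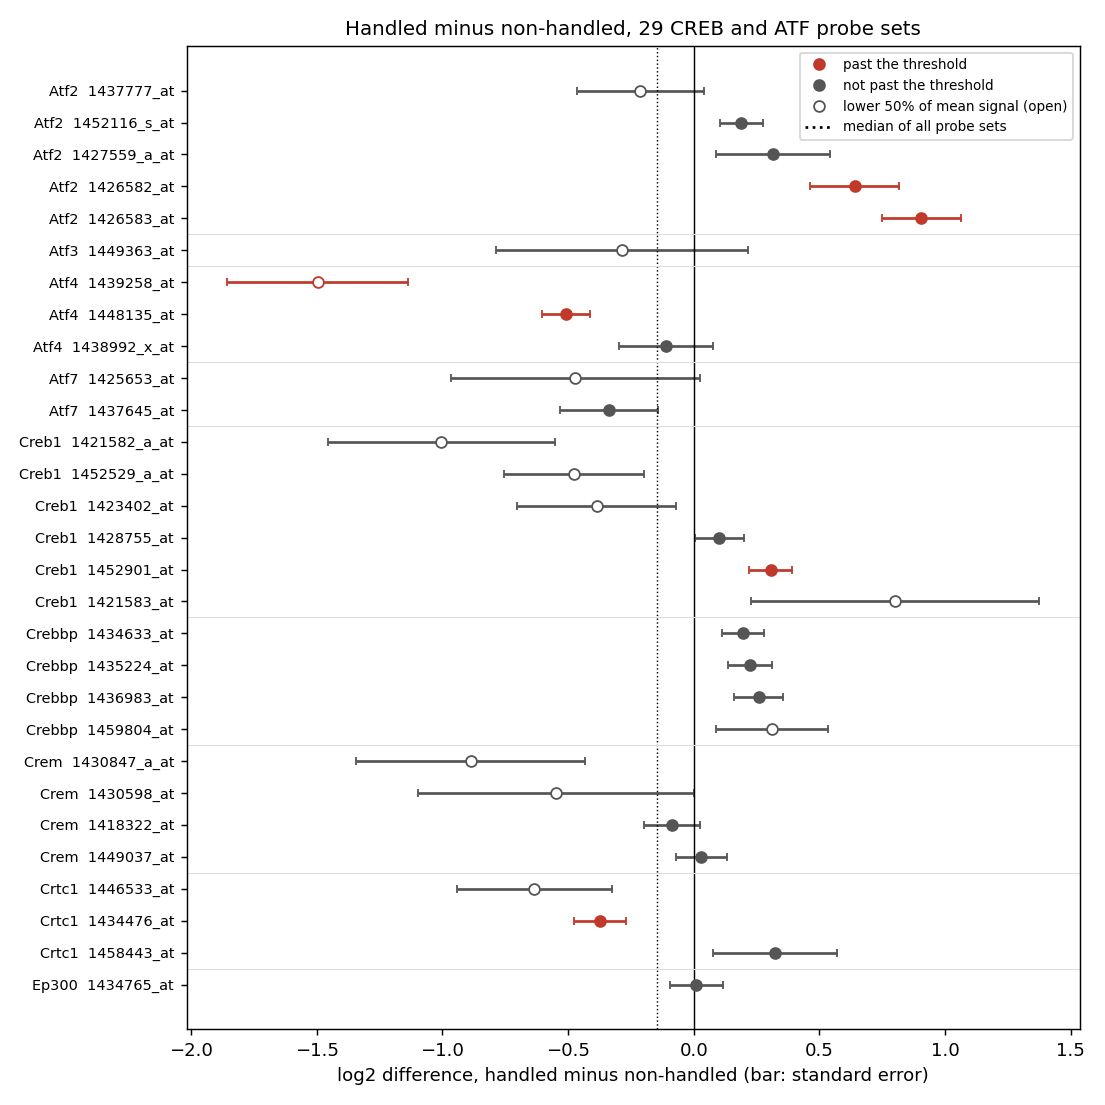
Handled minus non-handled difference in log2 signal (x axis) for each of the 29 probe sets, ordered by gene, with bars of 1 standard error. Red points are the 6 probe sets past the threshold, open points lie in the lower 50% of mean signal, and the dotted line is the median of all probe sets, -0.15. Over all probe sets in the lower 50% the median was -0.42. The Atf2 points past the threshold lie at 0.64 and 0.91 and the Atf4 points at -0.51 and -1.50.

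Creb1, the founding activator of the family, was measured by 6 probe sets, of which 1 was past the threshold. Its probe set 1452901_at was 0.31 higher with handling (SE 0.085), a 1.24-fold difference. With columns its signal ran from 1552 through a median of 1774 to 1885 in handled mice and from 1117 through 1390 to 1800 in non-handled mice. With Trizol it was 2078, 1930, 2740 and 2506 in the handled and 1588, 2555, 2407 and 1821 in the non-handled mice. Thus 9 of the 10 non-handled column mice lay below every handled one, and the Trizol groups overlapped. The call was lost after quantile normalization, where the difference was 0.26. A neighbouring probe set from the same sequence record, 1428755_at, differed by 0.10 (SE 0.098), with a median of 1630 in handled and 1506 in non-handled column mice, and its groups overlapped under both extraction methods. The other 4 Creb1 probe sets were dim, with differences from -1.0 (SE 0.45) to 0.80 (SE 0.57), and none was past the threshold. Those 2 extremes, 1421582_a_at and 1421583_at, come from 1 sequence record.

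Crem, which encodes activators as well as the cyclic AMP-inducible repressor ICER, had 4 probe sets and none past the threshold. Its 2 bright probe sets differed by -0.09 (1418322_at, SE 0.11) and 0.03 (1449037_at, SE 0.10). For 1418322_at the signal with columns ran from 558 through a median of 640 to 1080 in handled mice and from 574 through 764 to 838 in non-handled mice, so the groups overlapped. For 1449037_at it ran from 399 through 476 to 728 in handled and from 422 through 474 to 663 in non-handled mice, with nearly equal medians. The dim probe sets 1430598_at and 1430847_a_at differed by -0.55 (SE 0.55) and -0.89 (SE 0.45).

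Atf2, the stress kinase target that pairs with Jun, had the largest positive differences among the bright members. Probe set 1426583_at was 0.91 higher with handling (SE 0.16), a 1.87-fold difference. With columns its signal ran from 4177 through a median of 5091 to 7880 in handled mice and from 1534 through 2151 to 3893 in non-handled mice. All 7 handled column mice therefore lay above all 10 non-handled ones, which was so in either direction for 1 of the 29 probe sets and for 1.63% of all probe sets. With Trizol the signal was 6994, 3863, 4352 and 4402 in the handled and 4289, 3906, 4386 and 3064 in the non-handled mice, and these groups overlapped.

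Probe set 1426582_at of Atf2 was 0.64 higher (SE 0.18), a 1.56-fold difference. With columns its signal ran from 4131 through 5229 to 10561 in handled mice and from 1523 through 3332 to 7906 in non-handled mice, and with Trizol it was 5088, 4877, 5220 and 4155 against 4376, 4654, 4219 and 3056. Here 8 of the 10 non-handled column mice lay below every handled one. Leaving out the trend in the variance prior, adding the 3′ to 5′ ratios as covariates or giving all arrays equal mean and variance ended this call, with differences of 0.64, 0.44 and 0.50.

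A further bright Atf2 probe set from the same sequence record, 1452116_s_at, did not show a difference of that size. It differed by 0.19 (SE 0.086), and with columns its signal ran from 6209 through 6848 to 9979 in handled and from 4953 through 6378 to 9106 in non-handled mice. The distance between 1426583_at and 1452116_s_at within a mouse was -0.46 ± 0.19 (log2, mean ± SD, n = 7) in handled and -1.46 ± 0.34 (n = 10) in non-handled column mice, and -0.48 ± 0.32 (n = 4) and -0.61 ± 0.17 (n = 4) with Trizol. For 1426582_at the same distance was -0.33 ± 0.27 in handled and -0.96 ± 0.50 in non-handled column mice, and -0.47 ± 0.20 and -0.55 ± 0.20 with Trizol. In both, the mean was lowest in the non-handled column mice. For 1426583_at these mice ran from -1.90 to -0.85, and the lowest mouse of the other groups, a non-handled Trizol mouse, was at -0.76. For 1426582_at they ran from -1.97 to -0.20 and overlapped the other groups. How often such a distance sets a group apart in other pairs of probe sets was not counted, so nothing is read from it. The other Atf2 probe sets, 1427559_a_at and the dim 1437777_at, differed by 0.31 (SE 0.23) and -0.21 (SE 0.25). Atf7, the closest relative of Atf2, had differences of -0.34 (1437645_at, SE 0.19) and -0.47 (1425653_at, dim, SE 0.49), neither past the threshold. With columns the signal of Atf7 1437645_at ran from 136 through a median of 177 to 251 in handled and from 141 through 242 to 333 in non-handled mice, and with Trizol from 51.4 to 173 and from 90.7 to 243, so that the groups overlapped under both methods.

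Atf4, the translationally controlled activator of amino acid genes, was lower in handled mice in 2 of its 3 probe sets. Probe set 1448135_at differed by -0.51 (SE 0.096), a ratio of 0.703. With columns its signal ran from 1070 through a median of 1270 to 1733 in handled mice and from 1373 through 1945 to 2488 in non-handled mice. With Trizol it was 1472, 1388, 1179 and 1344 in the handled and 1911, 1616, 1629 and 2129 in the non-handled mice. All 4 handled Trizol mice lay below all 4 non-handled ones, as did 5 of the 7 handled column mice. This was the only one of the 29 whose Trizol groups did not overlap (3.85% of all probe sets in either direction), and its difference was -0.55 with columns and -0.43 with Trizol.

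The dim Atf4 probe set 1439258_at differed by -1.50 (SE 0.36), a ratio of 0.354. With columns its signal ran from 10.8 through 24.5 to 68.3 in handled mice and from 46.2 through 98.7 to 156.9 in non-handled mice, and with Trizol it was 11.3, 68.0, 36.2 and 45.5 against 80.2, 66.5, 51.8 and 25.0. The handled column mice were lower with overlap at the edges, and the Trizol groups overlapped. The third Atf4 probe set, 1438992_x_at, whose suffix marks probes that can bind other transcripts, differed by -0.11 (SE 0.19). Atf3, the stress-induced relative, had 1 probe set, and it was dim and imprecise, with a difference of -0.28 (SE 0.50). Its signal with columns ran from 5.76 through 41.5 to 77.3 in handled and from 7.01 through 53.1 to 112 in non-handled mice, and the spread within each group was far wider than the distance between their medians.

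Crebbp, which encodes CBP, the acetyltransferase that binds phosphorylated CREB, had 4 probe sets, all higher by sign with handling and none past the threshold. Its 3 bright probe sets differed by 0.20 (1434633_at, SE 0.082), 0.22 (1435224_at, SE 0.087) and 0.26 (1436983_at, SE 0.098). For 1435224_at the signal with columns ran from 2828 through 3088 to 3757 in handled and from 1920 through 2525 to 2967 in non-handled mice, and with Trizol it was 2677, 2281, 2473 and 3056 against 3134, 2527, 2546 and 3156. Of the handled column mice, 6 of 7 lay above every non-handled one, whereas with Trizol 2 of the 4 handled mice lay below every non-handled one. For 1434633_at the column medians were 2169 in handled and 1694 in non-handled mice and the Trizol medians 1823 and 1808, and for 1436983_at they were 2277 and 1783 with columns and 2405 and 2209 with Trizol.

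Ep300, which encodes the related acetyltransferase p300, differed by 0.01 (SE 0.11). Its signal with columns ran from 944 through 1199 to 1775 in handled and from 864 through 1077 to 1473 in non-handled mice, and the groups overlapped. Crtc1, the calcium- and cyclic AMP-regulated coactivator, was lower in its brightest probe set 1434476_at, by -0.37 (SE 0.10), a ratio of 0.772. With columns its signal ran from 827 through 1012 to 1201 in handled and from 1027 through 1246 to 1538 in non-handled mice, and with Trizol it was 362, 749, 444 and 468 against 780, 868, 593 and 844. Of the handled mice, 4 of 7 with columns and 3 of 4 with Trizol lay below every non-handled mouse of the same extraction. The call was lost in the fit without an extraction term, where the difference was -0.44 and thus no smaller. The other Crtc1 probe sets differed by -0.63 (1446533_at, dim, SE 0.31) and 0.32 (1458443_at, SE 0.25).

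**Figure D2:**
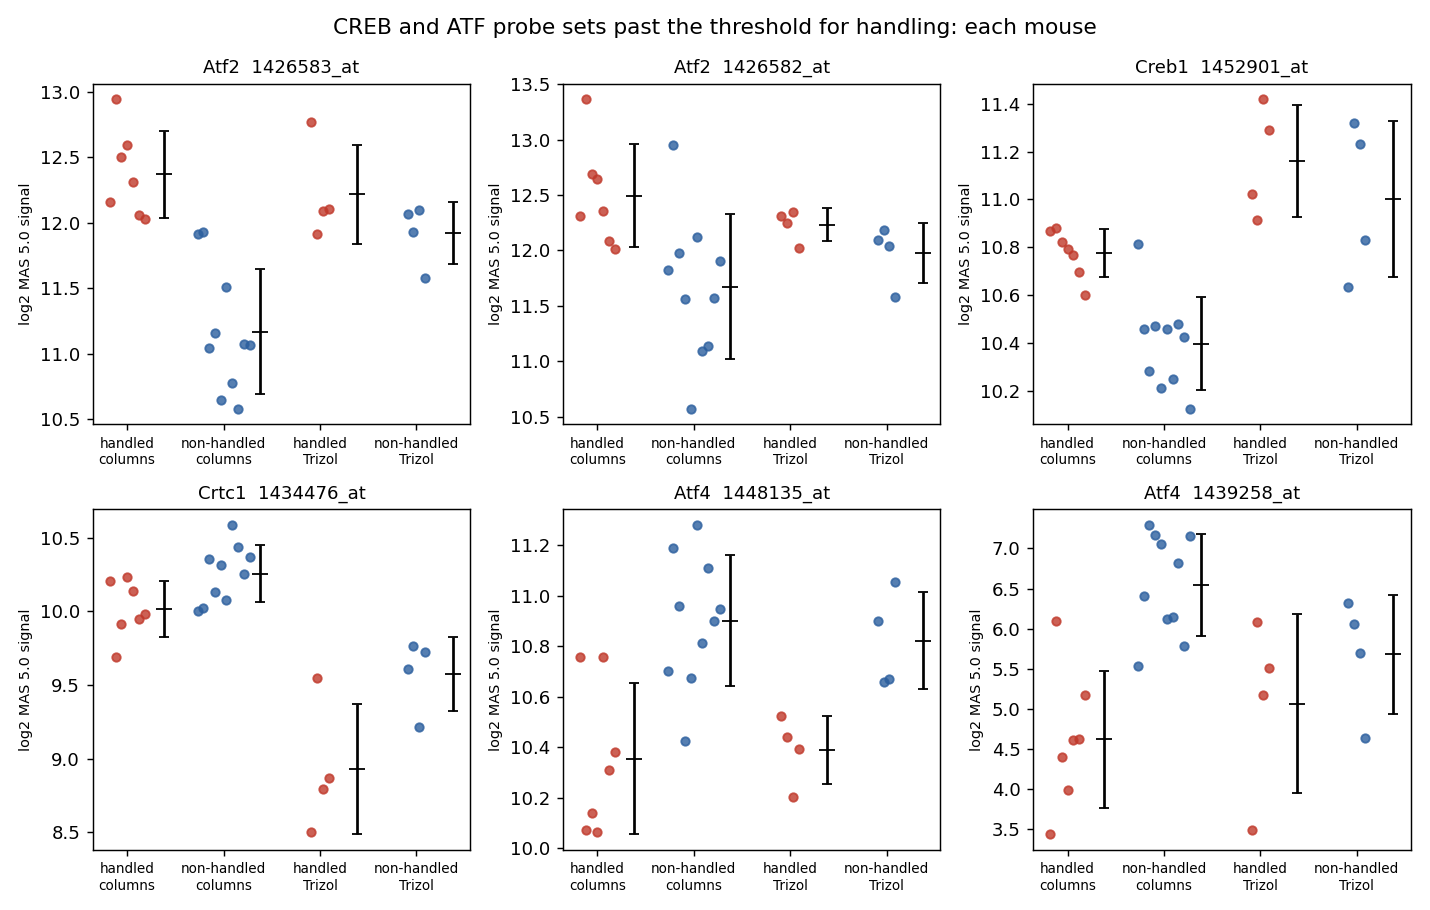
Log2 signal of each mouse (y axis, scaled separately in each panel) for the 6 probe sets past the threshold, in the 4 groups by handling and extraction method (x axis). Each point is a mouse and the bar beside each group is its mean ± SD; in Atf2 1426583_at the handled and non-handled column groups do not overlap, and in Atf4 1448135_at the Trizol groups do not overlap.

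Because extraction method and handling were crossed, the handling difference was also taken within each method. With columns alone 8 of the 29 probe sets were past the threshold, beside 12% of all probe sets, and with Trizol alone 0 were, beside 0 of all 45037. At an unadjusted p under 0.05, limma gave 2 of the 29 with Trizol alone (6.90%), beside 6.37% of all probe sets. The 3 bright Crebbp probe sets joined the calls with columns, at 0.31, 0.39 and 0.36, and the same probe sets had -0.04, -0.12 and 0.05 with Trizol. Crtc1 1434476_at left them, at -0.24 with columns and -0.65 with Trizol. Atf2 1426583_at was 1.20 higher with columns and 0.30 with Trizol, and 1426582_at was 0.83 and 0.26 higher. Creb1 1452901_at was 0.38 and 0.16 higher. The sign was the same under both methods in 20 of the 29 probe sets (69.0%), beside 62.5% of all probe sets.

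The difference between the methods was tested as the interaction of handling and extraction. By limma, 0 of the 29 probe sets passed at an adjusted p under 0.05 (0.0511% of all probe sets did), and 3 had an unadjusted p under 0.05 (10.3%, beside 7.47% of all probe sets). Those 3 were Atf2 1426583_at, with an interaction of 0.90 (SE 0.30, adjusted p = 0.495), Crebbp 1435224_at, with 0.51 (SE 0.17, adjusted p = 0.495), and Crebbp 1434633_at, with 0.35 (SE 0.17, adjusted p = 0.662). The handling difference of a member was therefore not shown to depend on the extraction method. The standard errors of the interaction had a median of 0.42, so sizeable dependence was not detectable for most members.

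**Figure D3:**
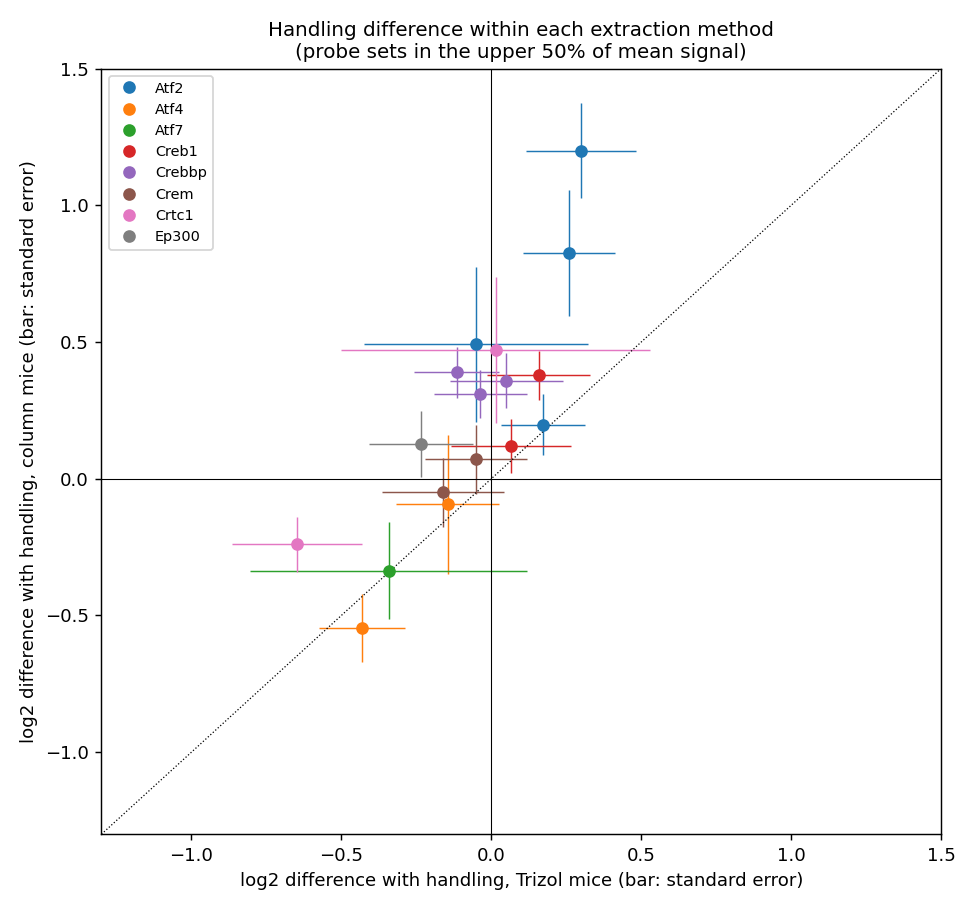
Handled minus non-handled difference in log2 signal among Trizol mice (x axis) and among column mice (y axis), 1 point for each of the 17 bright probe sets colored by gene, with bars of 1 standard error and a dotted line of equal differences. Atf2 1426583_at lies at 0.30 and 1.20, Atf4 1448135_at at -0.43 and -0.55 and Crtc1 1434476_at at -0.65 and -0.24.

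Between extraction methods, 8 of the 29 probe sets were past the threshold in the same fit, 3 higher with columns and 5 lower. That is 27.6% of the family beside 39.8% of all probe sets (16.5% higher and 23.3% lower), and the median columns minus Trizol difference was -0.08 in the family and -0.16 over all probe sets (0.16 after quantile normalization). The choice of the family did not use this contrast. Columns and Trizol were used on different mice, so the method cannot be told apart from the set of mice or its processing. Both bright Creb1 probe sets fell with columns, 1428755_at by -0.48 (SE 0.10, limma adjusted p = 0.000262) and 1452901_at by -0.50 (SE 0.091, limma adjusted p = 2.30e-05). Crem 1449037_at also fell, by -0.53 (SE 0.11, limma adjusted p = 0.000137). These CREB subfamily probe sets had mean signals of 1587, 1523 and 508 with columns and 2265, 2203 and 729 with Trizol.

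The Crtc1 probe sets moved in opposite directions: 1434476_at rose by 0.87 with columns (SE 0.11, limma adjusted p = 5.86e-08) while the dim 1446533_at fell by -1.31 (SE 0.33, limma adjusted p = 0.00128). In Atf2 the dim 1437777_at fell by -1.29 (SE 0.27, limma adjusted p = 0.000154), and the 4 bright probe sets 1426583_at, 1427559_a_at, 1426582_at and 1452116_s_at, at -0.32, -0.23, -0.04 and 0.12, did not pass. The dim Crebbp probe set 1459804_at rose by 0.80 (SE 0.24, limma adjusted p = 0.00608) and Atf7 1437645_at rose by 0.61 (SE 0.21, limma adjusted p = 0.0178). Neither Atf4 probe set past the threshold for handling moved with extraction, at 0.03 (1448135_at, SE 0.10) and 0.25 (1439258_at, SE 0.38). The log2 3′ to 5′ ratio of the Gapdh control probe sets also moved with extraction, with group means of 1.26 to 1.32 with columns and 1.67 to 1.76 with Trizol. With the 3′ to 5′ ratios as covariates 5 of the 8 calls were left, and those of Atf7 1437645_at, Crebbp 1459804_at and Crem 1449037_at were lost.

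**Figure D4:**
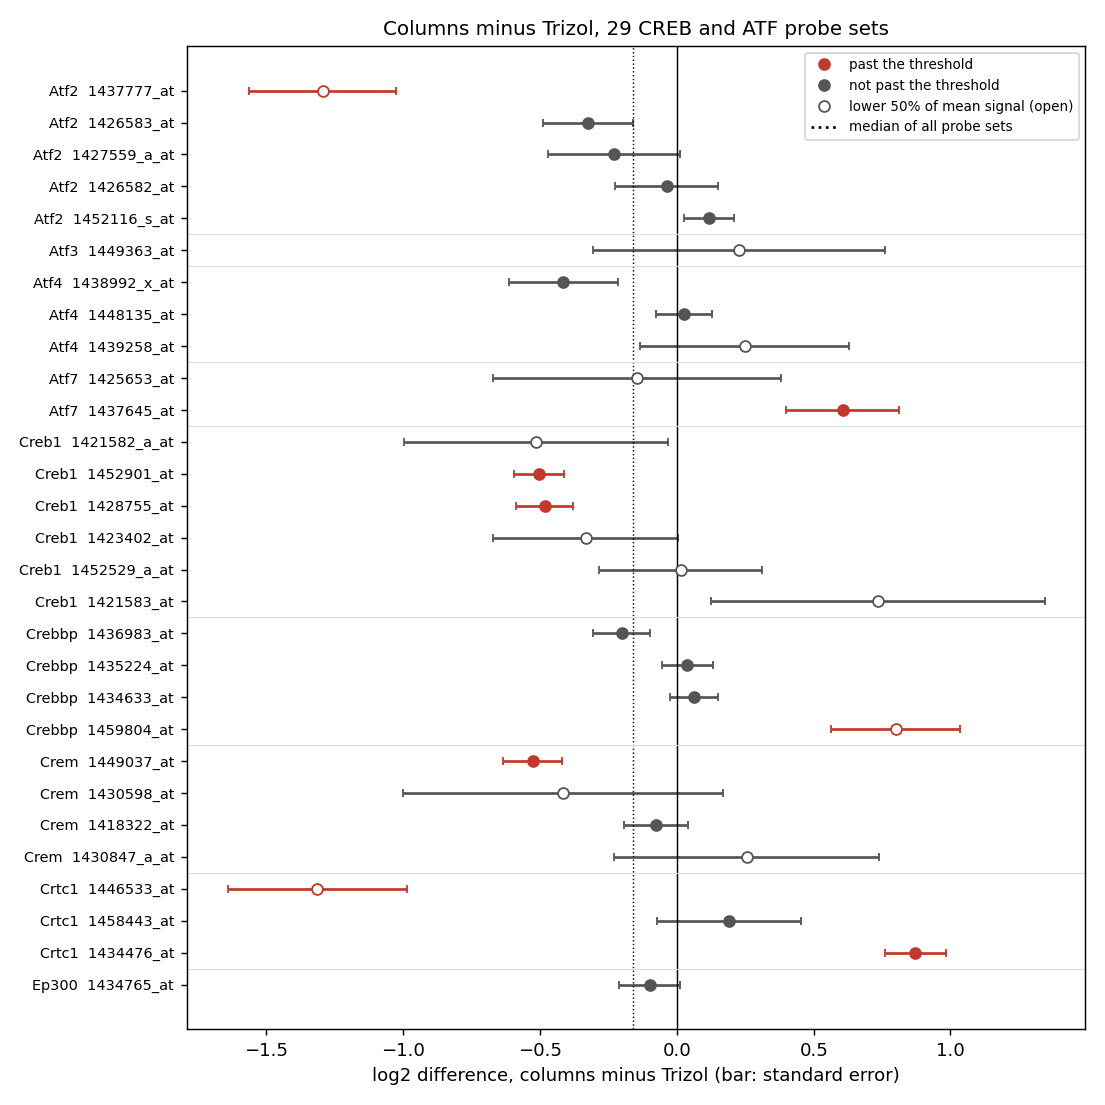
Columns minus Trizol difference in log2 signal (x axis) for each of the 29 probe sets, ordered by gene, with bars of 1 standard error. Red points are the 8 probe sets past the threshold and open points lie in the lower 50% of mean signal; Crtc1 has 1 such point at 0.87 and another at -1.31.

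Whether probe sets of 1 gene varied together between mice of the same group was asked after the mean of each of the 4 handling and extraction groups had been removed from log2 signal. This leaves out the handling difference itself. Of 44 pairs of probe sets, 6 correlated past the threshold over the 25 mice (two-sided permutation test of Pearson's r, adjusted over the 44 pairs), all with r above 0. All 6 were among the 13 pairs in which both probe sets were bright, and in the other 31 pairs r ran from -0.32 to 0.45. Of the 5 pairs drawn from 1 sequence record, 4 were past the threshold. How often bright probe sets of different genes correlate on these arrays was not tested, so these counts do not show agreement particular to a gene.

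The Atf2 probe sets from 1 sequence record followed each other closely. For 1426582_at and 1426583_at, Pearson's r was 0.805 and Spearman's rho 0.793 (permutation p = 1e-05 for r, the smallest the permutations give, adjusted p = 0.00044). The r was 0.741 without the 2 mice farthest from the median, 0.857 within columns and 0.519 within Trizol. The probe set 1452116_s_at, which differed little with handling, correlated with 1426583_at at r = 0.742 and with 1426582_at at r = 0.741 (adjusted permutation p = 0.00242 and 0.00462), and at 0.604 and 0.494 without the 2 farthest mice. The probe sets therefore shared their variation between mice of a group but not the size of their handling difference. Correlation of this size was not particular to Atf2. The 5 other genes most like 1452116_s_at correlated with it at r of 0.768 to 0.812.

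In Crebbp, 1435224_at correlated with 1436983_at at r = 0.687 (adjusted permutation p = 0.00462) and with 1434633_at at r = 0.651 (adjusted permutation p = 0.00977), and at 0.766 and 0.583 without the 2 farthest mice. The remaining bright Crebbp pair had r = 0.569 (adjusted permutation p = 0.0614) and a rho of 0.641 (adjusted permutation p = 0.0276), so it passed by ranks and not by r. In Creb1 the bright pair 1428755_at and 1452901_at had r = 0.706 (adjusted permutation p = 0.0283) but a rho of 0.526 (adjusted permutation p = 0.200), and r was 0.572 without the 2 farthest mice, 0.445 within columns (permutation p = 0.114) and 0.906 within Trizol (permutation p = 0.0149). The Creb1 relation therefore passed by r and not by ranks, and whether it differs between the extraction methods was not tested.

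The 3 Atf4 pairs had r of -0.07, -0.32 and -0.26, none past the threshold. The pair that was lower in handled mice includes the dim 1439258_at, and none of the 31 pairs with a dim probe set, of any gene, was past the threshold. The bright Crem pair had r = 0.391 (adjusted permutation p = 0.489), and Crtc1 1434476_at had r = 0.446 with 1446533_at (adjusted permutation p = 0.0614).

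**Figure D5:**
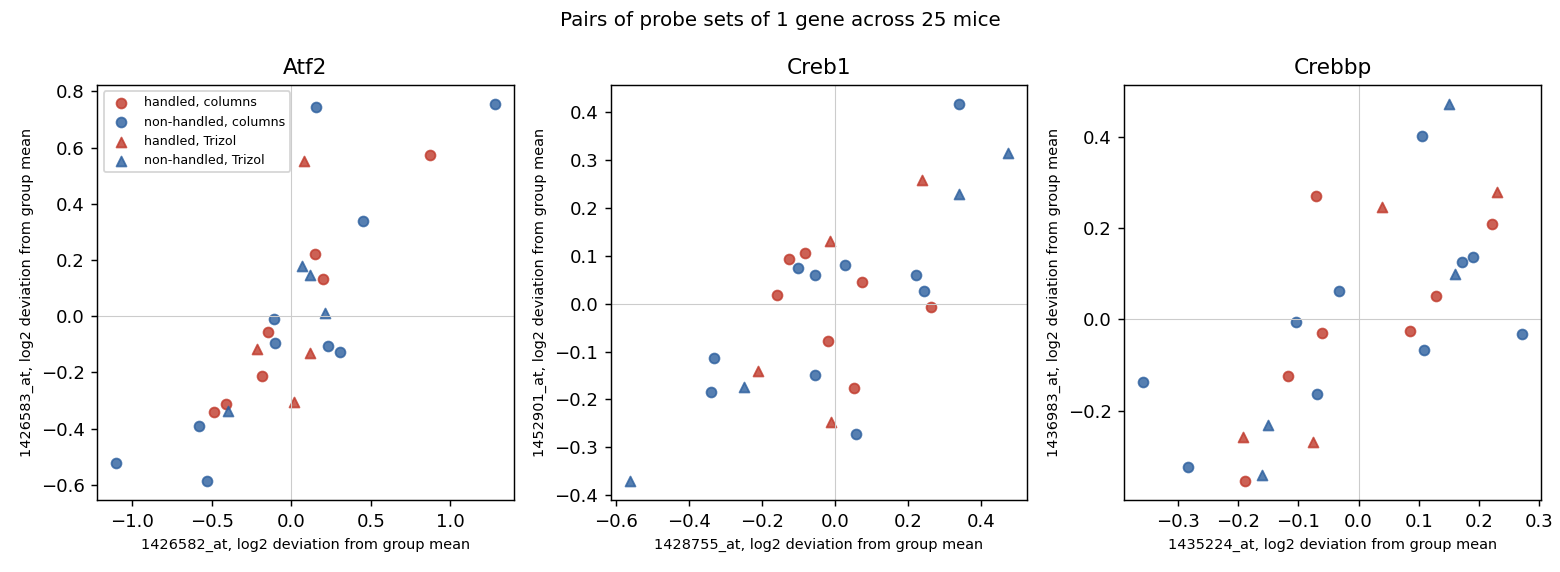
Deviation of each mouse's log2 signal from its group mean in the brighter (x axis) and the other (y axis) probe set of the most correlated pair past the threshold in Atf2, Creb1 and Crebbp, with circles for column and triangles for Trizol mice and red for handled and blue for non-handled mice. Points run from lower left to upper right in each panel, with r of 0.805, 0.706 and 0.687 over 25 mice.

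The genes whose signal varied most like the brightest probe set of Atf2, 1452116_s_at, over the 25 mice after removal of the 4 group means were 6030458C11Rik (r = 0.812), Yipf6 (r = 0.803), Syt4 (r = 0.785), Rufy3 (r = 0.770) and Hcfc2 (r = 0.768). For Atf4 1448135_at they were Rap1gap (r = 0.713), Camk1 (r = 0.686), Akap12 (r = 0.676), Lipa (r = 0.664) and Capn5 (r = 0.661). These values describe arrays that share labeling and scaling and carry no test. None of the 10 genes belongs to the family.

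The genes around the family were taken from lists of known roles, with the brightest probe set of each gene, beside a background of 14.3% of 18193 genes past the threshold with handling. Some genes stand in more than 1 list, so the lists are not independent. Ddit3 and Cebpb are ATF4 targets and dimer partners, Fos and Fosb are CREB targets and partners, and Atf5 is a relative and an ATF4 target. Crem, a member of the family, is also counted among the CREB targets. Of 25 measured kinases and cyclases listed as upstream of the family, Jun kinases among them, 3 were past the threshold as higher and 3 as lower. Their median difference was 0.05 beside -0.12 over all genes. Rps6ka6, a ribosomal S6 kinase of the family that phosphorylates CREB, was 0.54 higher (SE 0.12), and Mapk9, which encodes the Jun kinase JNK2, was 0.53 higher (SE 0.13). The adenylyl cyclases Adcy3 and Adcy1, which make cyclic AMP, were lower by -0.47 (SE 0.12) and -0.30 (SE 0.094). Of 17 relatives of the family 1 was past the threshold, Crebl2, at 0.42 (SE 0.093). Of 13 measured dimer partners, Nfe2l2, a regulator of antioxidant genes, was higher by 0.46 (SE 0.10) and Jund, a Jun protein, was lower by -0.73 (SE 0.12).

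None of the 20 CREB target genes and none of the 16 ATF4 target genes were past the threshold with handling by limma (0 and 0, with 3 and 1 at an unadjusted p under 0.05, beside 31.8% of all genes). Their median differences were -0.11 and -0.01, beside -0.12 over all genes. Fos and Egr1, early response genes driven by CREB and other factors, differed by -0.20 (SE 0.30) and -0.11 (SE 0.17), and Bdnf, a neurotrophin, by 0.04 (SE 0.11). Asns, the asparagine synthetase that ATF4 induces, differed by 0.14 (SE 0.096). The values of these 4 genes are given to show members of lists without a call and were chosen after they were seen.

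The same lists were also counted for extraction, beside 23.7% of all genes higher and 17.7% lower with columns and a median of -0.02. Of the 16 ATF4 target genes, 9 rose and 1 fell with columns relative to Trizol, with a median of 0.57, and 41.4% of all genes were past the threshold. Phgdh, the entry enzyme of serine synthesis, rose by 1.15 (SE 0.091, limma adjusted p = 1.97e-12), and Ddit4, an inhibitor of the mTOR pathway, rose by 1.48 (SE 0.25, limma adjusted p = 7.32e-06). Of the 13 dimer partners 9 rose and 1 fell, with a median of 0.66 and Jun at 0.75 (SE 0.10, limma adjusted p = 2.30e-07). Of the 20 CREB target genes 4 rose and 1 fell (median 0.20), of the 25 kinases and cyclases 9 rose and 6 fell (median 0.05), and of the 17 relatives 3 rose and 3 fell (median -0.10). After quantile normalization, an alternative added after the data were seen, the medians were 0.91 for ATF4 targets, 0.93 for partners, 0.25 for CREB targets, 0.01 for kinases and cyclases and 0.30 for relatives, beside 0.26 over all genes, so the sign for the relatives depends on the scaling. Phgdh, Ddit4 and Jun were chosen after their values were seen.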

How the data were processed

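CA1 RNA of each of 25 mice was run on an Affymetrix Mouse430_2 array. The authors deposited intensity, the linear MAS 5.0 signal from Affymetrix Expression Console 1.1, scaled array by array with the distributions left unequal. The extraction method of each mouse was read from the sample labels, which give it by position in the list of samples. All 25 columns were used, so 0 were left out.

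Signal was log2 transformed with no offset. All 45037 probe sets that are not array controls (64 were left out) were fitted in R 4.3.3 by limma 3.58.1, whose variance prior followed mean signal, on handling and extraction, and the Benjamini-Hochberg threshold was 0.05. The interaction was added in a further fit. Agreement between probe sets used 100000 permutations of mice within the 4 groups, in Python 3.11.15 with numpy 2.4.6, scipy 1.17.1 and pandas 2.3.3. Plots used matplotlib 3.10.9. Gene names came from the platform annotation (34958 with 1 gene, 932 with several and 9211 with none), and 34754 symbols were updated through gene identifiers. Genes of the lists are represented by their probe set of highest mean signal.

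Genes named are the 10 members with all their probe sets, up to 4 genes per list past the threshold for handling, by size, and the 5 genes most like the brightest probe set of the member with the most calls (Atf2 and Atf4 tied). The members and lists were chosen with earlier results of these data known. Tested on simulated data for the handling contrast over 45037 probe sets, the fit found 20% of the probe sets shifted by log2 0.5 and 48% of those shifted by log2 1, with 1 false call among 69. The simulated mice were independent, without litters. Precision is limited by the number of arrays and, for handling, by the litters, which were fewer than the mice. Alternatives were quantile normalization, equal mean and variance per array, an offset of 36.3 before the log, no trended prior, array weights, RNA quality covariates, no extraction or handling term, the upper 50% of mean signal only, each extraction method alone and each mouse left out. The behavioral measures of these mice were not analysed here.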

Additional observations from a re-analysis of the deposited data

Results flagged for a closer look

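In 8 sets of mice, among the 29 probe sets in each of 4 groups by handling and extraction, the highest or lowest mouse lay far from the rest of its group by Dixon's criterion. Chance gives about 1 in 20.

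Among handled column mice, mouse H110 had a log2 signal of 3.35 in Creb1 1423402_at while the others ran from 6.38 to 7.15, and mouse H109 had 8.46 in Atf4 1438992_x_at while the others ran from 9.11 to 9.51. Among non-handled column mice, mouse NH162, the array with the highest Actb 3′ to 5′ ratio, had 11.01 in Atf4 1438992_x_at while the others ran from 8.22 to 9.49, mouse NH166 had 4.89 in Creb1 1452529_a_at while the others ran from 6.36 to 7.54, and mouse NH142 had 10.81 in Creb1 1452901_at while the others ran from 10.13 to 10.48.

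Among Trizol mice, the handled mouse H126 had 9.15 in Atf4 1438992_x_at while the others ran from 9.65 to 9.75, and 12.50 in Atf2 1452116_s_at while the others ran from 12.76 to 12.78. The non-handled mouse NH144 had 8.35 in Atf2 1437777_at while the others ran from 6.65 to 6.93.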

How the results depend on the processing

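The count of members past the threshold for handling was 6, from 4 to 8 under the other scalings, priors and terms and with columns alone, and 0 with Trizol alone, where fewer mice were fitted. It was 6 to 8 when each mouse was left out, and each of the 6 calls remained in all 25 of those fits. Crebbp 1434633_at joined them without mouse NH147, 1435224_at without mouse H126, and 1436983_at without mouse H126, H130 or NH138. Atf2 1426583_at and both Atf4 probe sets lost the call only with Trizol alone. Creb1 1452901_at also lost it with equal mean and variance per array and without an extraction term, and Crtc1 1434476_at with columns alone, at -0.24. No call for handling or extraction reversed.

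The count for extraction was 8, and 5 when only the upper 50% of mean signal was fitted, where 17 member probe sets are left, or with RNA quality covariates, where the cause was not tested. It was 7 to 9 when each mouse was left out, with Atf7 1437645_at lost without mouse H126, mouse NH144 or mouse NH147. The interaction count stayed at 0 in every setting run. Of the 6 pairs of probe sets that correlated, 3 passed with columns alone and 0 with Trizol alone, where fewer mice were tested.

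No paired analysis was possible because the handled and non-handled groups share no replicate numbers. Dim probe sets limit Atf3 and part of Atf2, Atf4, Atf7, Creb1, Crebbp, Crem and Crtc1. The Atf4 call in 1439258_at is among them. With 1 array per mouse, technical error is left unmeasured.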
